A study of Homo sapiens with 43 samples.

Results

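U2AF is the pair of proteins that marks the end of an intron for the splicing machinery. Its large subunit U2AF2 (U2AF65) binds the pyrimidine-rich tract, and its small subunit U2AF1 (U2AF35) contacts the AG dinucleotide at the boundary with the exon. S34F and Q157R are recurrent U2AF1 mutations of myeloid malignancies and lie in its zinc fingers, which touch the RNA around that AG. Described here are the annotated gene rows that were most strongly crosslinked to U2AF2: rows outside chromosome M with at least 100 CPM (read counts scaled by the library's total of gene counts) in each of 4 U2AF2 eCLIP libraries. They numbered 1811 of 58347 rows in the count table (58310 outside chromosome M; 6 rows of chromosome M reached the threshold too). The rows were chosen by their U2AF2 eCLIP values, which are therefore given as a description, without a test.

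All libraries came from HEL, an erythroleukemia line of human origin, into which WT (wild-type), S34F or Q157R U2AF1 had been stably transduced. All CLIP libraries and the induced RNA-seq libraries came from cells given doxycycline at 1 µg/ml for 48 h, so the WT controls carry induced exogenous U2AF1 as well. In eCLIP, ultraviolet light ties RNA to the protein bound to it, the RNA is trimmed with RNase I, and what comes down with the protein's antibody is sequenced. The antibodies were 8 µg of anti-U2AF2 (4 WT libraries) and 12 µg of anti-FLAG for U2AF1 (3 WT libraries). Libraries 1a and 2a are technical repeats of 1 and 2. In freCLIP the U2AF1 membrane was cut into a light fraction (37 to 65 kD; 3 WT, 3 S34F and 2 Q157R libraries) and a heavy fraction (65 to 110 kD; 4 WT, 3 S34F and 2 Q157R libraries). RNA-seq had 2 WT, 2 S34F and 2 Q157R induced libraries and 2 WT, 1 S34F and 1 Q157R uninduced ones. Whether the transduced lines were clones or pools, and whether replicates were separate cultures, was not given in the sources used here, so p-values measure the spread between libraries, which may be technical. No size-matched input library was analysed here.

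Counts that name a gene summed to 306711 to 1148212 per eCLIP library, 38415 to 730996 per freCLIP library and 22392303 to 40370092 per RNA-seq library. They were 0.856% to 1.91% of the CLIP reads. Although they are few, the strongly crosslinked rows held 66.2% to 68.1% of the gene counts in U2AF2 eCLIP, 59.7% to 64.5% in U2AF1 eCLIP and 60.1% to 65.7% in freCLIP, against 5.59% to 5.92% in RNA-seq. How the counting treated strand was not given in the sources used here, so the reads of a row cannot be told apart from reads of a gene on the opposite strand. The light Q157R libraries held 38415 counts with 306 strongly crosslinked rows at 0 (replicate 2) and 135596 counts with 464 rows at 0 (replicate 3). Light S34F replicate 2 held 48359 counts with 56 such rows at 0, and light WT replicate 2 held 78987 with 84. Across freCLIP, the Pearson correlation of log2 CPM over these rows was 0.77 to 0.92 within the heavy WT group, 0.54 to 0.70 within light WT and 0.43 between the light Q157R libraries, and it describes library agreement only. Of 10 erythroid marker genes, 9 had at least 1 CPM in induced WT RNA-seq, and of 8 megakaryocyte markers 7. So did 3 of 6 monocyte and granulocyte markers and 2 of 6 lymphoid ones (CD79A at 1.22 and NKG7 at 1.35 CPM), while CD3D and MS4A1 were at 0. Of 6 stromal and epithelial markers 2 did, PECAM1 (346 CPM) and KRT18 (91.2).

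Because U2AF binds 3′ splice sites, the annotated sites inside these rows were read out first, from GENCODE 29 on GRCh38. In 1014 of the 1802 rows found there (56.3%), an exon of the row contained a complete 3′ splice site window of a gene on the other strand. The same held for 10.0% of the other rows with an eCLIP count. These rows were longer, with a median of 3638 exon bases against 2054 in the other rows with a count, and longer rows have more room for a site. Printed here are 14 such windows from rows described below, each 5′ to 3′ on the strand of the gene that is spliced, with 20 intron bases and 3 exon bases. The capitals mark the last 3 intron bases, positions −3 to −1, where U2AF1 contacts the RNA.
AP1G2 in AL135999.1, chr14:23561429-23561451, minus strand, 1 of 10 sites: ccttctgtcccttctgcCAGgcc
SRSF2 in MFSD11, chr17:76735873-76735895, minus strand, 1 of 3 sites: tgcattttccccctttaAAGctg
ZRANB2 in ZRANB2-AS1, chr1:71066932-71066954, minus strand: ttgtttctcaatcaatgAAGatc
H2AFY in C5orf66, chr5:135343432-135343454, minus strand: tttcatccccgcaccacTAGctg
TUBB in AL662797.1, chr6:30723320-30723342, plus strand: ttctcctgactgcattcCAGgtc
CALR in AC092069.1, chr19:12944192-12944214, plus strand: ccccttctctcatctctTAGctc
BCL2L1 in ABALON, chr20:31722328-31722350, minus strand: agctctttctctcccttCAGaat
BCL2L1 in ABALON, chr20:31722346-31722368, minus strand: attatttttttttcctgAAGctc
ZFYVE9 in CC2D1B, chr1:52346040-52346062, plus strand: cttttctctctgtggtaTAGgtt
ICAM2 in PRR29, chr17:64002923-64002945, minus strand, 1 of 3 sites: cttgccccctccctcccCAGagc
CHD1L in LINC00624, chr1:147259817-147259839, plus strand: gcttgggttttctctcaCAGatt
C12orf57 in U47924.2, chr12:6943522-6943544, plus strand, 1 of 4 sites: gcctttactgccgaatcCAGgtc
C19orf71 in MFSD12, chr19:3543215-3543237, plus strand, 1 of 3 sites: tgccccctgcccaccctCAGcga
NKTR in SEC22C, chr3:42600964-42600986, plus strand: tttctccccctctctccCAGctc

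All windows of this kind were then counted. The strongly crosslinked rows held 2254 opposite-strand sites, of which 2230 (98.9%) end in AG. The base before the AG was C in 70.5%, T in 20.5%, A in 7.09% and G in 1.88% of them, and the first exon base was G in 49.7%. On average 73.3% of the 17 bases upstream were pyrimidines. The 5671 sites in exons of other rows were alike in these letters, with C in 68.1%, T in 20.8%, a first exon G in 47.8% and 72.1% pyrimidines. The genes that own the sites differed in RNA level between the classes. In the strongly crosslinked rows 94.0% of sites belonged to a gene with at least 1 CPM in induced WT RNA-seq (median 50.6 CPM), against 38.0% (median 0.25 CPM) in the other rows. Counts were summed per row, so no crosslink position within a row is known.

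Protein-coding rows were the most frequent type, 1043 of 1811 (57.6%, against 34% of all rows outside chromosome M). Antisense rows followed with 542 (29.9%, against 9.35%), and among the other rows with an eCLIP count antisense rows made up 11.1%. There were also 58 processed pseudogenes, 49 lincRNAs, 35 rows of the TEC class (transcripts still to be tested experimentally) and 29 processed transcripts. A gene lay on the opposite strand of 1668 of the 1802 annotated rows (92.6%), against 52.5% of the other rows with an eCLIP count. Overlap with another gene of the same strand was no more frequent, at 25% against 25.8%. The median U2AF2 level was 252 CPM for the 1014 rows with an opposite-strand splice site in an exon, 187 CPM for the 654 rows with an opposite gene but no such site and 197 CPM for the 134 rows with no opposite gene.

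**Figure D1:**
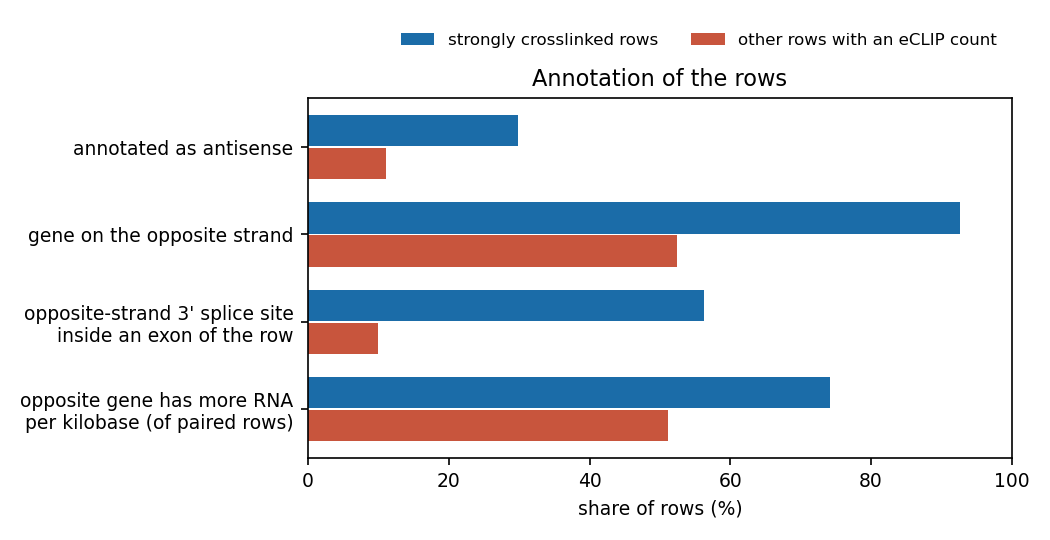
Share of rows in percent (x axis) with each annotation property (y axis), as bars for the 1811 rows strongly crosslinked in U2AF2 eCLIP and the other rows with an eCLIP count. Antisense rows (29.9% against 11.1%), rows with an opposite-strand gene (92.6% against 52.5%), rows with an opposite-strand 3′ splice site in an exon (56.3% against 10.0%) and rows whose opposite gene had more RNA per kilobase (74.2% against 51.2%) were all more frequent among the strongly crosslinked rows.

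The mean U2AF2 eCLIP level of these rows ran from 106 to 6335 CPM with a median of 220. Of the 1811, 884 stayed at or above 200 CPM in every U2AF2 library, 293 at 500, 87 at 1000 and 24 at 2000. At the threshold, AC007383.2 (120, 100, 131 and 125 CPM in libraries 1, 1a, 2 and 2a), DHFR2 (114, 100, 117 and 115) and RF02120 (106, 100, 113 and 137) fell just inside. Just outside were REEP5 (99.2, 100, 123 and 113 CPM), HMGN1P2 (99.2, 104, 104 and 118) and AC006942.1 (99.2, 106, 133 and 101). The rows on both sides of the line thus had nearly the same levels.

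The highest row was AL135999.1, an antisense RNA (chr14:23561097-23568073, plus strand) lying across AP1G2, which encodes an adaptin of clathrin-coated vesicles. Its U2AF2 level was 6280, 6303, 6412 and 6347 CPM in libraries 1, 1a, 2 and 2a. Its U2AF1 level was 4690, 4675 and 2964 CPM in libraries 1, 1a and 2. All U2AF2 libraries were close to each other, and all U2AF1 libraries lay below them. TTI2 (chr8:33473386-33513601, minus strand), which encodes a partner of the kinase chaperone TELO2, shares its locus with the ribosome biogenesis gene MAK16 and had 3950, 4098, 5619 and 5736 CPM of U2AF2. Its U2AF1 eCLIP level was 5317, 5351 and 2810 CPM, overlapping the U2AF2 range.

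The MFSD11 row (chr17:76735865-76781449, plus strand), which overlaps the splicing factor gene SRSF2, had even U2AF2 levels of 4841, 4764, 4550 and 4425 CPM. TTN (chr2:178525989-178830802, minus strand), the giant sarcomere protein titin, had 4783, 4983, 4312 and 4413 CPM of U2AF2 although its own RNA was 0.0231 CPM per kilobase. Its exons hold 39 annotated 3′ splice sites of the antisense gene TTN-AS1 (37 end in AG), whose RNA was 1.03 CPM per kilobase.

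MYH7B (chr20:34975403-35002437, plus strand), a myosin heavy chain gene, had 4759, 4511, 4597 and 4202 CPM of U2AF2, and 3632, 3656 and 936 CPM of U2AF1. NEIL1 (chr15:75346955-75357114, plus strand), a DNA glycosylase gene, had 3817, 3569, 3605 and 3363 CPM of U2AF2 and contains 9 annotated 3′ splice sites of the mannosidase gene MAN2C1 (8 end in AG). LRRC24, opposite LRRC14, had 3734, 3236, 3866 and 3517 CPM of U2AF2 but 2776, 2848 and 430 CPM of U2AF1. In MYH7B and LRRC24 the second biological U2AF1 library was thus far below the first and its technical repeat. ZRANB2-AS1 (chr1:71048855-71067184, plus strand), antisense to a splicing-related zinc finger gene, had 3395, 3596, 2964 and 3456 CPM of U2AF2, and C5orf66 (chr5:135033280-135358219, plus strand), across the macroH2A1 gene H2AFY, had 3326, 3219, 2941 and 3117. Each of these last rows contains the single opposite-strand site printed above.

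**Figure D2:**
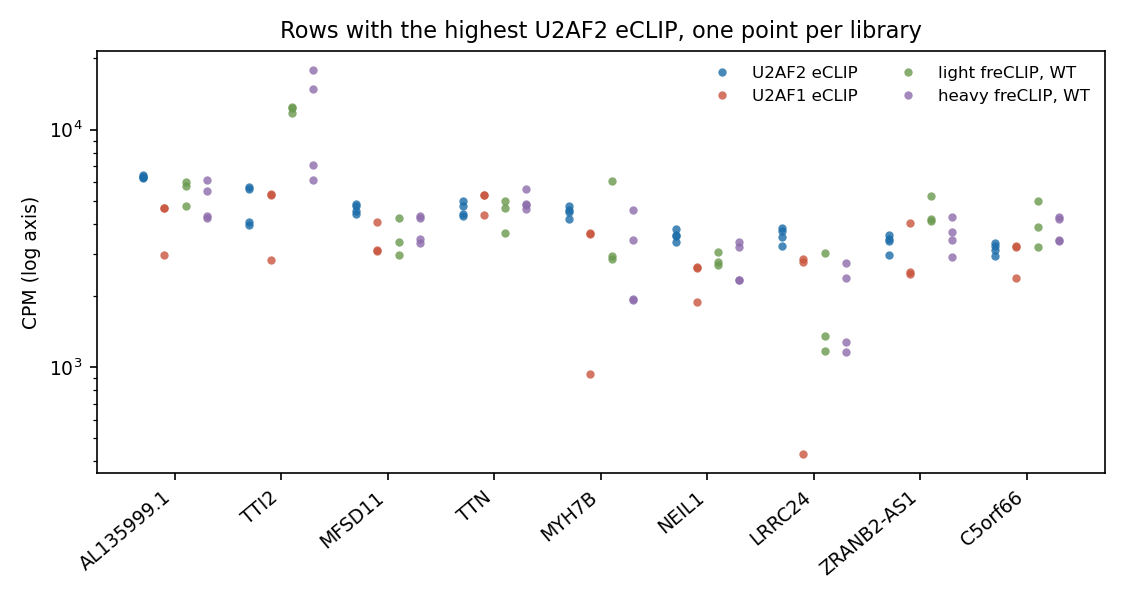
CPM per library on a log axis for 9 of the 10 rows with the highest mean U2AF2 eCLIP level, with points for U2AF2 eCLIP, U2AF1 eCLIP, light WT freCLIP and heavy WT freCLIP. AL135999.1 kept U2AF2 levels between 6280 and 6412 CPM, while LRRC24 was at 2776 and 2848 CPM in U2AF1 libraries 1 and 1a and at 430 in library 2.

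In U2AF1 eCLIP, which the choice of rows did not use, 1285 of the 1811 rows (71.0%) also had at least 100 CPM in every library, against 2.57% of all rows outside chromosome M. The same threshold was met in every heavy WT freCLIP library by 1239 rows (68.4%; 2.35% of all rows) and in every light WT library by 961 (53.1%; 1.8% of all rows). The mean U2AF1 level ran from 31.7 to 10869 CPM with a median of 207, and the median ratio of U2AF1 to U2AF2 was 0.839. The U2AF1 mean was the higher one in 622 rows (34.3%; 36.8% of all rows with an eCLIP count). Over the 1811 rows the Spearman coefficient was 0.823 between U2AF2 and U2AF1, 0.959 between the biological replicates of U2AF2 and 0.748 between those of U2AF1. U2AF1 eCLIP ranked the rows more like the heavy WT fraction (0.926) than like the light WT fraction (0.788). These coefficients are across rows, which share libraries, depth and row length, and carry no test.

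Ratios far from 1 came partly from single libraries. AC008440.2, which lies opposite MYADM, had the highest ratio (17), with 117, 137, 139 and 142 CPM of U2AF2 and 752, 745 and 3805 CPM of U2AF1. Its heavy WT freCLIP level was similarly split, at 476 and 760 CPM in replicates 1 and 2 and 3514 and 4373 in replicates 3 and 4. The pseudogene ANKRD36BP1 was steadier, with 141, 124, 128 and 103 CPM of U2AF2 against 651, 661 and 616 of U2AF1 (ratio 5.07). AP002449.1, opposite the nucleoporin gene SEH1L, had 193, 188, 199 and 231 CPM of U2AF2 and 782, 739 and 1470 of U2AF1 (ratio 5.55). In these rows every U2AF1 library was above every U2AF2 library.
At the other end, SCAP, the escort protein of sterol sensing, had 187 and 196 CPM of U2AF2 in libraries 1 and 1a, 1100 and 1095 in libraries 2 and 2a, and 128, 133 and 61.9 CPM of U2AF1 (ratio 0.149). NMT2, an N-myristoyltransferase gene, had 105, 144, 138 and 123 CPM of U2AF2 and 50.5, 41.3 and 3.26 of U2AF1 (ratio 0.193). PMS2P1, a pseudogene whose reads are uncertain because near-identical copies exist, had 327, 303, 334 and 346 CPM of U2AF2 and 120, 134 and 0 of U2AF1 (ratio 0.194). Here every U2AF1 library was below every U2AF2 library.

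The RNA of the row and of the gene on its other strand was compared per kilobase of exon in the induced WT libraries. Own RNA was low in many rows, with a median of 1.41 CPM and with 856 rows (47.3%) under 1 CPM. Of 1653 rows whose opposite gene was in the tables, that gene had more RNA per kilobase in 1226 (74.2%), against 51.2% of the other rows with an eCLIP count. It had at least 10 times as much in 874 (52.9%, against 40.4%). The paired medians were 0.631 CPM per kilobase for the row and 8.71 for its opposite gene. Of the antisense rows, 508 of 537 had the richer gene on the other strand, with medians of 0.215 and 14.1 CPM per kilobase. Of the processed pseudogenes 41 of 43 did, with medians of 0.0152 and 12.3. Protein-coding rows were nearer to balance, with the richer gene opposite in 543 of 928.

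Among the 10 highest rows the opposite gene had 16.4 CPM per kilobase against 2.23 for AL135999.1, 85.8 (SRSF2) against 3.47 for MFSD11, and 70.3 (ZRANB2) against 0.815 for ZRANB2-AS1. It had 48.9 (H2AFY) against 0.479 for C5orf66 and 16.9 (MAN2C1) against 0.0791 for NEIL1. The highest opposite-strand levels were those of GAPDH across AC006064.4 (1251 CPM per kilobase), of TUBB, a beta-tubulin, across AL662797.1 (377) and of the endoplasmic reticulum chaperone CALR across AC092069.1 (336). Some rows were themselves abundant RNAs, led by TGFB1 (271 CPM per kilobase), THBS1 (243) and the ribosome-associated RACK1 (237). Over the 1653 paired rows, the Spearman coefficient of the U2AF2 level was 0.0746 with own RNA and 0.198 with that of the opposite gene. The rows were chosen by their U2AF2 level, and a range cut in this way can lower such coefficients. Over all 18884 paired rows with a U2AF2 count the coefficients were 0.283 and 0.465.

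**Figure D3:**
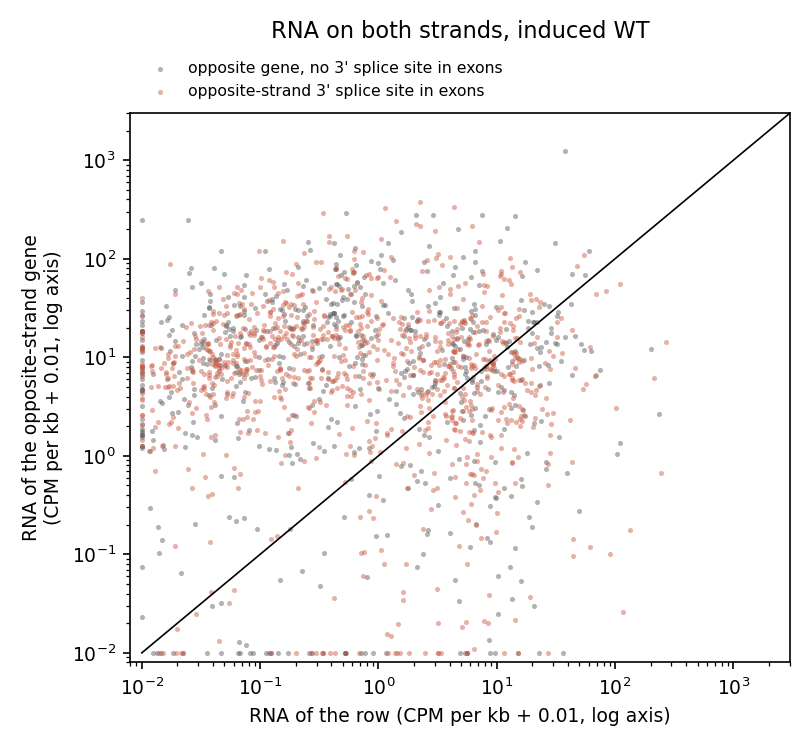
RNA of the opposite-strand gene (y axis) against RNA of the row itself (x axis), both in CPM per kilobase of exon plus 0.01 on log axes, means of 2 induced WT libraries, one point per paired row. Most points lie above the diagonal: the opposite gene had more RNA in 1226 of 1653 rows.

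The light and heavy fractions of WT freCLIP were compared next. The median ratio of light to heavy mean CPM was 0.91 with quartiles of 0.687 and 1.18. All 1811 rows passed the filter on low counts, and edgeR's quasi-likelihood test with Benjamini-Hochberg adjustment over 6833 rows called 3 of them. They were 2 higher and 1 lower rows in the light fraction, where 0.0732% of all rows tested were called (0.0585% higher and 0.0146% lower). freCLIP levels are in CPM scaled by TMM, a library-size correction. AC010970.1 (chrY:10197256-10199103, minus strand), a processed pseudogene with no RNA-seq count in the induced WT libraries, had 2548, 2654 and 1792 CPM in the light WT libraries and 373, 553, 289 and 726 in the heavy ones. The groups did not overlap, and the log2 difference was 2.26 ± 0.31 (SE; adjusted p = 1.14e-05). Near-identical copies make the origin of its reads uncertain.

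U47924.2 (chr12:6943508-6944604, minus strand), an antisense row with 4 splice sites of C12orf57, had 6471, 10444 and 10148 CPM in light WT and 3556, 2005, 2684 and 3388 in heavy WT (log2 difference 1.63 ± 0.23, adjusted p = 2.43e-05). Both rows were higher in the light fraction in the mutants too. In S34F, where they were the 2 rows called of the 1811, both higher (0.0439% of all rows tested, 0.0% lower), the log2 difference was 2.13 ± 0.34 for AC010970.1 (adjusted p = 0.000225) and 2.46 ± 0.26 for U47924.2 (adjusted p = 2.09e-08). In Q157R it was 2.61 ± 0.42 (adjusted p = 0.00016) and 1.27 ± 0.30 (adjusted p = 0.0122). Every edgeR and DESeq2 setting and every omission of a single library kept the WT calls of both.

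CC2D1B (chr1:52345723-52366193, minus strand), a gene of endosomal sorting and the 1 lower row, had counts of only 0, 2 and 1 in light WT. Its heavy WT levels were 233, 173, 121 and 153 CPM. The ratio of pooled counts, heavy over light, was 23.3 with an exact 95% binomial interval of 7.86 to 114 that covers counting error only. Its fitted log2 difference was −4.67 ± 0.95 (adjusted p = 0.0154), and it depends on the handling of the low counts. ZNF773, a zinc finger gene with the highest ratio (10.1), had 1447, 8940 and 5115 CPM in light WT and 224, 369, 564 and 895 in heavy WT, with no overlap, and was not called (adjusted p = 0.405).

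In the light fraction, S34F against WT, 14 of the 1811 rows were called (7 higher and 7 lower; 0.773%), beside 23 of all 6833 rows tested (0.337%; 0.19% higher and 0.146% lower). With DESeq2's size factors in edgeR (RLE) the split was 10 higher and 5 lower, beside 0.381% of all rows (0.278% and 0.102%). With only the groups compared in the fit 3 were called. Leaving out 1 library gave 4 to 18, with 4 without S34F replicate 2, 5 without WT replicate 4 and 9 without S34F replicate 1. The median log2 fold change was −0.10 for these rows and −0.05 for all rows tested. Beyond the 3 strongest in each direction, the called rows are named because they passed the test, a choice made after their values were seen.

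MROH1 (chr8:144148016-144261940, plus strand), a HEAT-repeat gene without an opposite-strand gene, had 23.9, 89.7 and 6.84 CPM in light WT and 909, 1169 and 733 in light S34F. The groups were far apart, with a log2 fold change of 4.35 ± 0.63 (adjusted p = 5.76e-05). Its heavy fraction moved the same way, from 243, 230, 130 and 82.4 CPM in WT to 914, 1118 and 751 in S34F (2.49 ± 0.50, adjusted p = 0.0317). The log2 change of its own RNA did not pass the test (0.46 ± 0.33, adjusted p = 0.427).

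U47924.2 had 6471, 10444 and 10148 CPM in light WT and 38757, 31024 and 18329 in light S34F (1.70 ± 0.25, adjusted p = 7.88e-05). In the heavy fraction it had 3556, 2005, 2684 and 3388 CPM in WT and 7393, 4727 and 3890 in S34F (0.87 ± 0.23, adjusted p = 0.134). The S34F libraries lay above every WT library in both fractions, and the heavy difference did not pass the test. The RNA of C12orf57 on the other strand did not pass the test either (log2 fold change −0.22 ± 0.29, adjusted p = 0.663). MROH1 and U47924.2 were called in light S34F under all settings and without any one library.

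CC2D1B, with 3 counts in all light WT libraries, had 424, 191 and 263 CPM in light S34F. The ratio of pooled counts was 54.4 (exact 95% binomial interval 18.1 to 268, counting error only) and the fitted log2 fold change 5.49 ± 0.98 (adjusted p = 0.0018). Heavy S34F (387, 314 and 154 CPM) overlapped heavy WT (233, 173, 121 and 153). NEXN (chr1:77888513-77943895, plus strand), which encodes the actin-binding protein nexilin, fell from 1089, 1802 and 1183 CPM in light WT to 280, 340 and 306 in light S34F (−2.15 ± 0.39, adjusted p = 0.00184). Its heavy-fraction log2 fold change was −1.20 ± 0.35 (adjusted p = 0.279). CC2D1B and NEXN were called in light S34F without any one library and in 5 of the 6 other settings.

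KIF28P (chr1:246771837-246839611, minus strand), a kinesin pseudogene with 3 splice sites of LINC01341 in its exons, rose from 12, 110 and 20.5 CPM to 635, 659 and 483 (3.44 ± 0.76, adjusted p = 0.0246). ATP6V1FNB (chr7:128866308-128872044, plus strand), opposite KCP, rose from 47.8, 130 and 75.2 CPM to 458, 744 and 654 (2.79 ± 0.58, adjusted p = 0.012). MYO15B (chr17:75588058-75626501, plus strand), a myosin gene with no opposite gene, rose from 179, 114 and 68.4 CPM to 519, 892 and 452 (2.37 ± 0.57, adjusted p = 0.0399). In each of these rows all S34F libraries lay above all WT libraries. PRR29 (chr17:63998351-64004304, plus strand), opposite the adhesion molecule gene ICAM2, completed the higher rows, from 251, 563 and 499 CPM to 1202, 1806 and 1338 (1.70 ± 0.38, adjusted p = 0.0218). Of the 6 omissions of a single library, ATP6V1FNB was called in 4, PRR29 in 3 and KIF28P and MYO15B in 2.

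Among the lower rows, LMLN (chr3:197960200-198043720, plus strand), a metallopeptidase gene, fell from 335, 114 and 315 CPM in light WT to 20.5, 21.2 and 0 in light S34F (−4.35 ± 0.90, adjusted p = 0.012). LINC00624 (chr1:147258885-147517875, minus strand), across the chromatin remodeler gene CHD1L, fell from 323, 436 and 1053 CPM to 171, 21.2 and 67.2 (−2.68 ± 0.64, adjusted p = 0.0399). AP003392.3 (chr11:119044188-119045493, plus strand), across the endoplasmic reticulum chaperone gene HYOU1, fell from 801, 644 and 226 CPM to 178, 42.5 and 73.3 (−2.40 ± 0.50, adjusted p = 0.0123). In none of these did the groups overlap, and each was called in 2 of the 6 omissions of a library.
ABALON (chr20:31721507-31723409, plus strand) lies across BCL2L1, which encodes the survival protein BCL-XL. It fell from 1495, 3599 and 3488 CPM to 1168, 765 and 1271 (−1.41 ± 0.32, adjusted p = 0.0259). AC092069.1 (chr19:12944118-12944487, minus strand), across CALR, had 754, 2063 and 1969 CPM in light WT against 458, 170 and 807 in light S34F. Its groups overlapped, and it was called at the edge of the threshold (−1.70 ± 0.41, adjusted p = 0.0489). AKAP8P1 (chr9:11011748-11013096, plus strand), a pseudogene, fell from 2081, 3506 and 3371 CPM to 1339, 1084 and 1308 (−1.26 ± 0.30, adjusted p = 0.0371), and reads of such pseudogenes may come from their parent gene. AC092069.1 was called in 2 of the 6 omissions of a library and in 1 of the 6 other settings, and ABALON and AKAP8P1 in 1 of the 6 omissions.

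**Figure D4:**
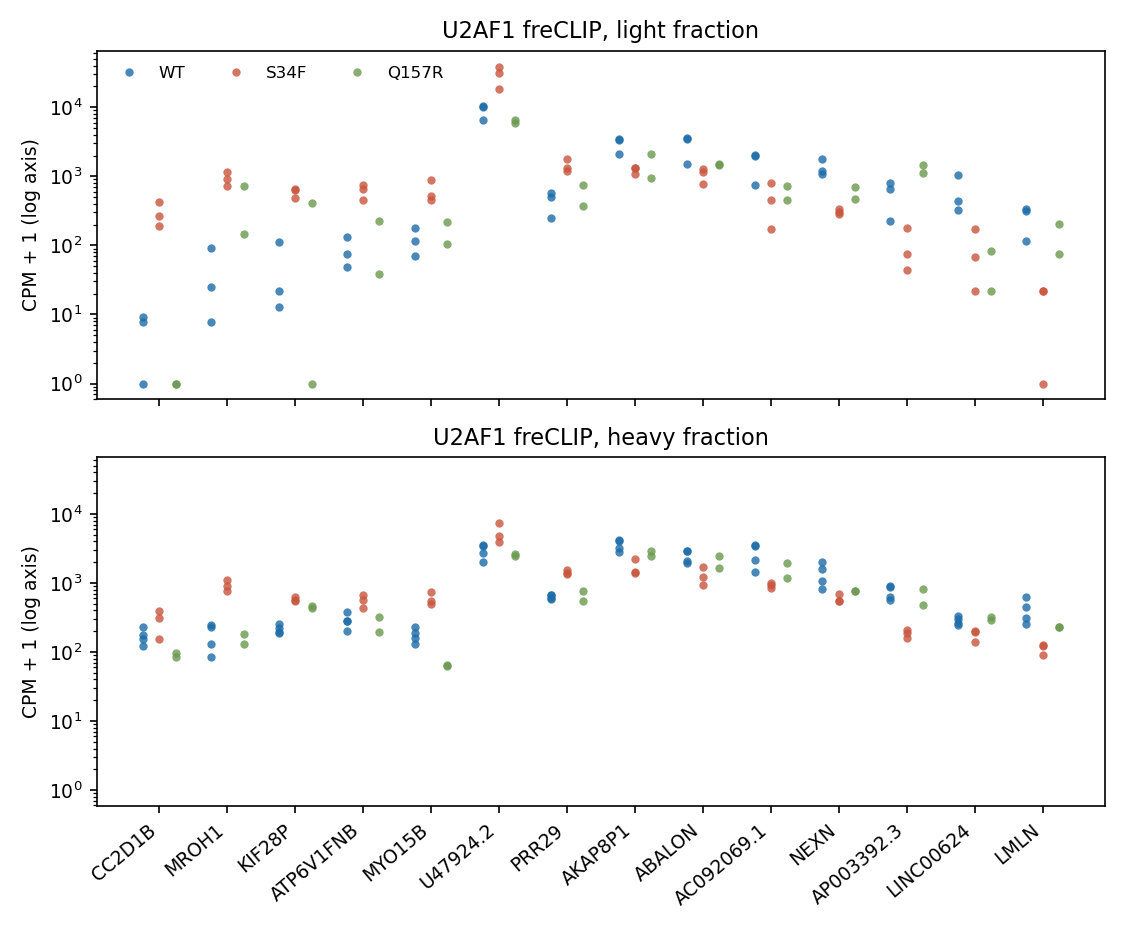
CPM plus 1 per library on a log axis for the 14 rows called between S34F and WT in the light fraction, in the light (one panel) and heavy (other panel) fraction, with points for WT, S34F and Q157R. In the light panel the S34F points of AC092069.1 overlap the WT points, and those of the other rows lie apart from them.

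In the heavy fraction, S34F against WT, 6 of the 1811 rows were called (3 higher and 3 lower; 0.331%), beside 0.132% of all rows tested (0.0878% higher and 0.0439% lower). With RLE scaling 3 were called, all higher, beside 0.0878% of all rows. MROH1 and AP003392.3 were in both fractions' lists. AP003392.3 had 896, 876, 616 and 571 CPM in heavy WT and 189, 161 and 204 in heavy S34F (−1.98 ± 0.45, adjusted p = 0.0464). ADAMTSL4 (chr1:150549369-150560937, plus strand), a gene of microfibril assembly, rose from 327, 265, 284 and 235 CPM to 1126, 1142 and 1186 (2.05 ± 0.44, adjusted p = 0.0391). MFSD12 (chr19:3538261-3574290, minus strand), which encodes a lysosomal cysteine transporter, rose from 625, 783, 837 and 516 CPM to 2112, 1994 and 2423 (1.66 ± 0.36, adjusted p = 0.0391). In both rows the WT and S34F libraries were clearly separated, and the light fraction had the same sign without passing the test (1.64 ± 0.49, adjusted p = 0.119, for ADAMTSL4; 1.56 ± 0.39, adjusted p = 0.053, for MFSD12).
AL136131.3 (chr6:43770429-43770616, minus strand), across the angiogenic factor gene VEGFA, fell from 1045, 760, 468 and 553 CPM to 212, 145 and 189 (−1.94 ± 0.44, adjusted p = 0.0464). MARCH1 (chr4:163524298-164384050, minus strand), a membrane ubiquitin ligase gene, fell from 3192, 3502, 4499 and 5247 CPM to 1697, 1439 and 2129 (−1.23 ± 0.28, adjusted p = 0.0464). No heavy-fraction call outlasted the omission of every single library in turn: without any one of them 0 of the 1811 rows were called, except without WT replicate 1 (1 row). Light and heavy S34F effects were also compared directly; edgeR's interaction test called 0 of the 1811 rows (0.0% of all rows tested; 32 at an unadjusted p under 0.05).

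Rows with exactly 1 opposite-strand splice site could be split by the base before its AG, the position where S34F is known to change recognition. In light S34F the median log2 fold change was −0.18 over 340 rows with C, 0.00 over 118 with T and 0.03 over 41 with A. Over all rows tested the medians were −0.14 (844 rows), 0.03 (309) and −0.01 (94). The quartiles were wide beside these shifts, from −0.70 to 0.44 for C and from −0.64 to 0.50 for T among the strongly crosslinked rows. In heavy S34F the medians were −0.12, −0.02 and −0.05, against −0.01, 0.02 and 0.08 over all rows tested. Among the rows called in light S34F, LINC00624 and its CHD1L site had C, while CC2D1B (ZFYVE9) and AC092069.1 (CALR) had T. These are descriptions of per-row counts and were not tested.

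The change of a row in S34F freCLIP was set beside the RNA-seq change of both strands. In RNA-seq, 47 of the 1421 opposite genes tested were called between induced S34F and WT (14 higher and 33 lower), where 1.67% of all genes tested were called (0.681% higher and 0.991% lower). With the replicate block 443 were called, 286 of them lower, beside 22.4% of all genes (9.56% higher and 12.9% lower). The 15 rows facing the 14 higher genes had positive S34F log2 fold changes in 13 cases in the light fraction (median 0.78) and in 13 in the heavy fraction (median 0.70). The 34 rows facing the 33 lower genes had negative ones in 26 cases in each fraction (medians −0.65 and −0.41). Of all 1811 rows, 799 were positive and 1012 negative in the light fraction, and 824 and 987 in the heavy fraction. Over 1532 rows, Spearman's coefficient between the row's S34F freCLIP change and its opposite gene's RNA change was 0.267 in the light and 0.348 in the heavy fraction. Between the row's freCLIP change and its own RNA change it was 0.0267 and 0.0567 (1196 rows). The CLIP and RNA-seq libraries are separate, and the coefficients, across rows of the same libraries, carry no test.

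Single pairs show the range. TTN-AS1 RNA rose from 21.6 ± 1.56 to 43.7 ± 3.62 CPM (SD, n = 2; log2 1.01 ± 0.17, edgeR adjusted p = 0.0448), and the TTN row had 4816, 5634, 4879 and 4622 CPM in heavy WT and 6618, 6665 and 7330 in heavy S34F (0.46 ± 0.21, adjusted p = 1.0). In the locus of MFSD12, RNA of AC005786.3 rose from 1.16 ± 0.0211 to 3.88 ± 0.187 CPM (1.74 ± 0.32, edgeR adjusted p = 0.0451). C19orf71, whose site is printed above, rose from 3.29 ± 0.953 to 12.0 ± 0.231 CPM (1.86 ± 0.30, adjusted p = 0.0443). MFSD12's own RNA had a log2 fold change of −0.91 ± 0.19 (adjusted p = 0.0538), opposite in sign to its freCLIP change, and passed with the replicate block (0.00215). HMG20B, which owns the remaining site, went from 90.3 ± 29.9 to 61.3 ± 10.5 CPM (−0.56 ± 0.27, adjusted p = 0.259, and 0.0428 with the block), also opposite in sign. TTN-AS1, AC005786.3 and C19orf71 thus had the sign of the freCLIP value. HMG20B, by far the most abundant site-owning gene across MFSD12, did not.
For ADAMTSL4, RNA of AL356356.1 across it was low, at 0.879 ± 0.202 CPM in WT and 3.44 ± 1.38 in S34F (SD, n = 2). The log2 change of AL356356.1 was 1.95 ± 0.41 (edgeR adjusted p = 0.0561, and 0.00264 with the replicate block). ADAMTSL4 itself had −2.14 ± 0.81 (adjusted p = 0.169, and 0.00266 with the block). For ABALON, BCL2L1 RNA was 331 ± 58.8 CPM in WT and 129 ± 45.7 in S34F (SD, n = 2; −1.36 ± 0.26, edgeR adjusted p = 0.0503; 0.000435 with the replicate block). For KIF28P, LINC01341 was also low, at 2.44 ± 0.56 CPM in WT and 8.68 ± 0.509 in S34F (1.83 ± 0.38, adjusted p = 0.0558, and 0.00133 with the block). For AP003392.3, HYOU1 had 577 ± 27.2 and 308 ± 43.3 CPM (−0.91 ± 0.20, adjusted p = 0.061, and 0.00328 with the block). These opposite genes passed the threshold with the block but not without it, and had the sign of the row's freCLIP change.
Other pairs did not. MAK16 RNA fell from 90.4 ± 10.5 to 36.5 ± 1.32 CPM (SD, n = 2; −1.31 ± 0.20, edgeR adjusted p = 0.0443), while TTI2 across it had freCLIP changes of 0.44 ± 0.29 (light) and 0.46 ± 0.27 (heavy), neither called. ZFYVE9, across CC2D1B, had −0.10 ± 0.17 (adjusted p = 0.748), and CHD1L, across LINC00624, had 0.03 ± 0.15 (adjusted p = 0.928).

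**Figure D5:**
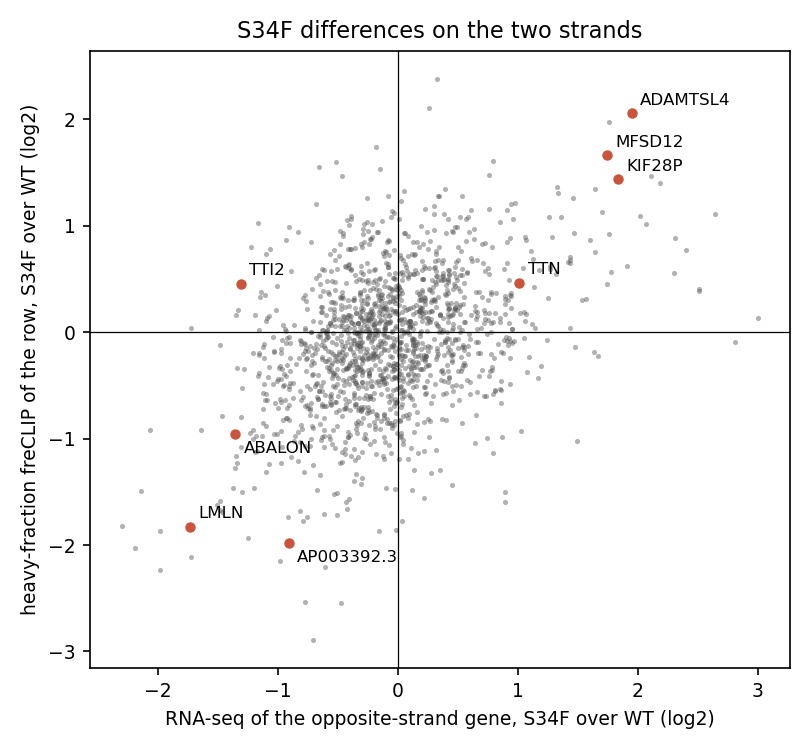
Log2 fold change of each row in heavy-fraction freCLIP, S34F against WT (y axis), against the log2 fold change of its opposite-strand gene in induced RNA-seq, S34F against WT (x axis), one point per row. ADAMTSL4 (2.05) and MFSD12 (1.66) lie at the upper right, AP003392.3 (−1.98) and ABALON (−0.96) at the lower left, and TTI2 (0.46) stands apart because MAK16 RNA fell.

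Q157R was compared in the same way. In the light fraction 253 of the 1811 rows were called (14.0%; 25 higher and 228 lower), beside 7.6% of all rows tested (1.35% higher and 6.25% lower). With RLE scaling there were 183, 39 higher and 144 lower, beside 5.34% of all rows (1.96% and 3.38%). The median log2 fold change was −0.71 for these rows and −1.19 for all rows tested, and −0.32 and −0.80 with RLE scaling, so that both lists shifted with the scaling. These calls rest on 2 light Q157R libraries, which had counts on 4619 and 4934 rows of the table. Every other freCLIP library had counts on at least 6683. Of the 228 lower rows, 93 had no count in either library and 74 none in one, against 126 and 518 of all 1811 rows. Leaving out replicate 3 gave 109 called rows, and leaving out replicate 2 gave 682. Fitting only the groups compared gave 0 called rows by edgeR.

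SEC22C, a gene of early secretory traffic, had 347, 510 and 492 CPM in light WT, 0 and 0 in light Q157R and 350 and 384 in heavy Q157R. With 3 counts as the floor over both libraries (17.2 CPM), it was at least 22.8-fold lower than the pooled light WT. This fold and those below cover counting error only. The light Q157R libraries correlated at 0.43 and had 306 and 464 of the 1811 rows at 0. Beyond counting error, these folds are therefore no lower bounds. PKD2L2, a polycystin-like channel gene, had 359, 175 and 670 CPM in light WT, 0 and 0 in light Q157R (at least 17.2-fold lower) and 350 and 320 in heavy Q157R. MROH5 had 203, 693 and 520 CPM in light WT, 0 and 0 in light Q157R (at least 26.5-fold lower) and 74.2 and 243 in heavy Q157R. SVIL, which encodes the actin-binding supervillin, was at least 7.55-fold lower, with 47.8, 192 and 164 CPM in light WT and 286 and 467 in heavy Q157R. Adjusted p-values from edgeR were 2.65e-05, 0.000152, 0.000362 and 0.00637. SEC22C, PKD2L2 and SVIL thus had over 100 CPM in both heavy Q157R libraries, while the lower MROH5 value was 74.2 CPM.

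Some rises were carried by 1 library, as in SLFNL1-AS1 and MCMDC2. In AC008105.3 and MROH1 both light Q157R libraries lay above every light WT library. SLFNL1-AS1 had 35.9, 53 and 47.9 CPM in light WT and 41.2 and 1412 in light Q157R (3.98 ± 0.94, adjusted p = 0.00801), so replicate 2 lay within the WT range. Without replicate 3 its log2 fold change was −0.24. MCMDC2 had 23.9, 8.15 and 109 CPM in light WT and 61.7 and 1212 in light Q157R (3.80 ± 0.86, adjusted p = 0.00567), again with replicate 2 inside the WT range. AC008105.3 had 0, 28.5 and 13.7 CPM in light WT and 144 and 458 in light Q157R (4.19 ± 1.27, adjusted p = 0.0366). MROH1, raised in S34F, was also higher in light Q157R, at 144 and 725 CPM (3.31 ± 0.65, adjusted p = 0.00163), but not in heavy Q157R, at 180 and 129 (−0.11 ± 0.59, adjusted p = 1.0).

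In the heavy fraction, Q157R against WT, edgeR called 0 of the 1811 rows, beside 0.0% of all rows tested, and 28 had an unadjusted p under 0.05 (2.18% of all rows tested did). DESeq2 called 0 of them as well (0.00326% of all rows it tested). The median log2 fold change was −0.06 (−0.10 over all rows). Light against heavy Q157R, by contrast, gave 167 called rows (4 higher and 163 lower; 9.22%), beside 4.1% of all rows tested (0.263% higher and 3.83% lower). The higher ones were AC010970.1, U47924.2, SLFNL1-AS1 (3.70 ± 1.08, adjusted p = 0.0387) and LDLRAD4, a regulator of TGF-beta signalling. LDLRAD4 had 473 and 1035 CPM in light and 138 and 104 in heavy Q157R (2.67 ± 0.74, adjusted p = 0.0271). Tested as an interaction, the Q157R effect differed between fractions in 50 of the 1811 rows, 49 of them more negative in the light fraction, beside 0.922% of all rows tested.

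The RNA of the rows themselves was compared last. In bulk RNA-seq, fewer cells of a type and less RNA per cell cannot be told apart. Of 1298 rows that passed the filter on low counts, 21 were called between induced S34F and WT (1.62%; 11 higher and 10 lower), beside 1.67% of all genes tested (0.681% higher and 0.991% lower), while the replicate block gave 298 (22.4% of all genes tested). AVIL, which encodes the actin-binding advillin, rose from 4.29 and 3.78 CPM to 54.2 and 36.5 (3.29 ± 0.32, edgeR adjusted p = 0.0342). IL21R-AS1 rose from 0.248 and 0.036 CPM to 2.99 and 3.12 (4.08 ± 0.63, adjusted p = 0.0443), and AC002553.1, across the corepressor gene NCOR1, from 0.173 and 0.288 to 1.43 and 1.26 (2.36 ± 0.43, adjusted p = 0.0451). The largest falls were in the histone gene HIST1H4I, from 61.9 and 70.7 CPM to 21 and 21.7 (−1.83 ± 0.24, adjusted p = 0.0432), and in the Ras exchange factor RASGRP1, from 5.23 and 6.33 CPM to 1.92 and 2.56 (−1.56 ± 0.29, adjusted p = 0.0456). NR2C2AP, across the MHC class II factor gene RFXANK, fell from 20.2 and 18.2 CPM to 7.06 and 9.76 (−1.39 ± 0.24, adjusted p = 0.0448). In all 6 rows the WT and S34F libraries did not overlap.

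None of these 6 rows was called in freCLIP: AVIL had 1.64 ± 0.63 in the light fraction (adjusted p = 0.216) and RASGRP1 0.62 ± 0.37 in the heavy fraction (adjusted p = 1.0). The 2 S34F induced libraries had a smaller share of reads naming a gene (43.6% to 44.1%, against 49.5% to 53.4% in WT induced). They also had more reads assigned to no feature (33.5% to 33.7%, against 22.7%). Whether those reads lay in introns is not known from the counts, and the part of these shares in the calls was not tested. The summed level of 6 monocyte and granulocyte markers was 91.9 to 107 CPM in induced S34F and 46.2 to 60.1 in induced WT. Of the 4 tested, ITGAM was called higher (1.49, edgeR adjusted p = 0.0448), while CSF1R had −1.51 (adjusted p = 0.382). With the replicate block 1 was higher and 1, CSF1R, was lower (adjusted p = 0.00399). The summed level of the 8 megakaryocyte markers was 1357 to 1878 CPM in induced S34F and 1880 to 2895 in induced WT, with ITGB3 called lower (−0.95, adjusted p = 0.0448). The part of these markers in the row changes was not tested either. Without any one of the 4 libraries, 0 rows were called by edgeR. Between induced Q157R and WT, edgeR and DESeq2 called 0 of the rows (0.0% of all genes tested by edgeR, 0.00776% by DESeq2), and 46 had an unadjusted p under 0.05 (3.36% of all genes tested).

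Genes of splice site recognition were looked up by list. Of the 21300 genes tested in RNA-seq, 1298 were strongly crosslinked rows and 1421 lay on the other strand of one. A count of 0 in a short list therefore says little. Only 1.59% to 1.89% of U2AF2 eCLIP reads named a gene, so a low level does not show that U2AF2 was not bound. Of 22 factors of 3′ splice site recognition, 0 were strongly crosslinked rows themselves: their median RNA was 187 CPM and their median U2AF2 eCLIP level 2.86 CPM. On the other strand of such rows lay 5 of them, including U2AF2 itself (across AC008735.2, 296 CPM of U2AF2 eCLIP), SF3A1 (across CCDC157, 128) and SF3A2 (across PLEKHJ1, 531). Of 17 regulators that bind pyrimidine-rich RNA, 0 were such rows and 5 lay opposite one, including HNRNPK (across AL354733.3, 654 CPM), PCBP1 (across PCBP1-AS1, 474) and PCBP2 (across MAP3K12, 519). The list of 11 nuclear long noncoding RNAs held 1 such row, FTX, an RNA of the X-inactivation centre, with 666 CPM of U2AF2, 1022 of U2AF1 and 35.8 of RNA. MALAT1, with 3331 CPM of RNA, had a mean of 6.14 CPM of U2AF2, and NEAT1 one of 99.7 CPM. Of 21 small RNA rows, listed because such RNAs are abundant in cells, 0 were such rows. In RNA-seq their median was 0.193 CPM, with 8 at 0 and only 5 above 1 CPM. They were hardly counted here, so no conclusion on their crosslinking is drawn.

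In RNA-seq, edgeR called 0 of the splice site recognition factors in S34F (median log2 fold change −0.36; 1 higher and 7 lower with the replicate block) and 0 of the pyrimidine-binding regulators (−0.34; 1 higher and 8 lower with the block), against a median of 0.00 over all genes. Over all genes tested 1.67% were called, and with the block 9.56% were higher and 12.9% lower. U2AF2 RNA was 328 ± 70.5 CPM in induced WT and 189 ± 40.2 in induced S34F (SD, n = 2; log2 −0.79, edgeR adjusted p = 0.112; 0.00231 with the replicate block). The U2AF1 gene was at 13.0 to 22.1 CPM across groups in all genotypes. A near-identical copy of U2AF1 in the genome makes that value uncertain, so it does not check the labels.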

How the data were processed

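The tables the authors deposited hold unnormalized counts of reads for each gene and library. GRCh38.p10, HISAT2, STAR (2.5.3a and 2.7.0f), SAMtools, HTSeq and cutadapt are listed in the submitters' processing notes, beside DESeq2 and edgeR, with no roles. The strand setting and annotation release were not given in the sources used here. Closing lines for unassigned reads were left out of library sizes. In them, 28.1% to 64.7% of CLIP reads were assigned to no feature, and whether those lay in introns is not known from the counts. Rows were matched to GENCODE 29 (58084 of 58347), and its transcripts gave the splice site windows. The opposite gene of a row is the opposite-strand gene with the longest overlap.

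Rows and lists were chosen with earlier results of these data known. edgeR 4.0.16 (R 4.3.3) with TMM, filterByExpr (minimum count 10) and the robust quasi-likelihood test was fitted to all libraries of an assay, with 1 mean per group, Benjamini-Hochberg adjustment over all rows tested and a threshold of 0.05. DESeq2 1.42.0 was an alternative, as were RLE scaling, no filter, a replicate block, rows outside chromosome M, only the groups compared, and leaving out each library. eCLIP and RNA levels are counts over the column sum, and freCLIP levels, marked as such, and opposite-gene RNA means with an SD are scaled by TMM. Errors after log2 fold changes are SE. On data simulated for light S34F against WT (6833 rows simulated, 5059 tested), the fit recovered 82.5% of 200 rows changed 4-fold, with 9 false calls. The simulation gave every row and group the same fixed spread and changed only rows with higher mean counts. That spread was not estimated from the libraries, so the share recovered does not measure the power of the reported tests.

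Named rows were the 10 highest by U2AF2, the 3 largest called rises and falls per comparison, the 3 rows on each side of the threshold, the extremes of the U2AF1 to U2AF2 and light to heavy ratios and of RNA per kilobase. Others called in S34F were added after their values were seen. Of the 10 highest rows, 1 is not reported here. In RNA-seq, libraries with the same replicate number deviated together (correlations 0.211 to 0.652 over 12 pairs), though the labels do not say what a number shares. With 2 libraries per group the deviations mirror each other, so each value occurs 2 times among the 12 pairs. In freCLIP, libraries with the same number deviated together only weakly (0.002 to 0.145, median 0.051, 6 of 34 pairs over 0.1). The 85 pairs with different numbers had −0.169 to 0.139 (median −0.027, 3 over 0.1). The main tests, light against heavy included, did not pair the freCLIP libraries. TimeLapse-seq (9 samples) was not analysed here. Reads carry no molecular identifiers in the tables, so intervals and floors cover counting error only.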

Additional observations from a re-analysis of the deposited data

Results flagged for a closer look

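The Q157R effect (log2 fold change against WT) was compared between the light and the heavy freCLIP fraction by an interaction term in edgeR, and 5 rows named above differed. The light minus the heavy effect was negative in SEC22C (−9.53 ± 1.5 SE, adjusted p = 0.00053), where both light Q157R libraries had no count. In PKD2L2 the difference was −9.36 ± 1.64 (adjusted p = 0.00195), in SVIL −8.60 ± 1.97 (adjusted p = 0.0208) and in MROH5 −8.49 ± 1.94 (adjusted p = 0.0208), again with no count in either light Q157R library. Fitted values of rows at 0 depend on the prior count and are no bound. In MROH1 the difference was positive (3.43 ± 0.90, adjusted p = 0.0433), with 144 and 725 CPM in light Q157R against 180 and 129 in heavy Q157R. The light Q157R libraries held 38415 and 135596 gene counts, on only 4619 and 4934 rows. Light S34F replicate 2 held 48359 counts on 7692 rows, and light WT replicate 2 held 78987 on 6683. The part of depth and of the few rows covered in the differences was not tested.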

How the results depend on the processing

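The counts below are of the 1811 rows called at an adjusted p under 0.05. In light S34F against WT (14), 7 were called without the filter, 35 by DESeq2, 3 with only the groups compared and 4 to 18 when 1 library was left out (4 without S34F replicate 2, 5 without WT replicate 4 and 9 without S34F replicate 1). In light Q157R against WT (253), 120 were called without the filter, 0 with only the groups compared and 109 to 682 with a library left out. In heavy S34F against WT (6), 3 were called with RLE scaling, 0 without the filter, 13 with the replicate block, 28 by DESeq2, 133 with only the groups compared and 0 to 1 with a library left out. In light against heavy Q157R (167), 99 were called with RLE scaling, 84 without the filter, 0 with only the groups compared and 74 to 611 with a library left out (611 without light replicate 2, 74 without light replicate 3, 111 and 102 without heavy replicates 2 and 3). DESeq2 called 4 rows in light against heavy S34F (2), with 2 in each omission, and light against heavy WT (3) gave 2 to 3. In RNA-seq, S34F against WT (21), 150 were called without the filter, 298 with the replicate block, 109 by DESeq2, 0 with only the groups compared and 0 with any library left out. For Q157R in RNA-seq (0), 2 were called without the filter. Over all genes tested in S34F RNA-seq, 356 were called, 4779 with the block, 2410 without the filter, 1545 by DESeq2 and 0 with only the groups compared.

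Libraries with the same freCLIP number deviated together only weakly, and the main tests did not pair them. With the replicate numbers as a block, 18 rows were called in light S34F and 206 in light Q157R. In light against heavy, 4 were called in WT, 2 in S34F and 186 in Q157R. In heavy Q157R and in RNA-seq Q157R 0 were called. Among named rows, 594 alternative values kept direction and side of the threshold, 211 kept only direction, 24 newly passed and 2 reversed: SLFNL1-AS1 without light Q157R replicate 3, at −0.24 against WT and −0.57 against the heavy fraction (4.88 and 4.55 without light replicate 2). Genes covering at least 50% of a row lay opposite 813 rows instead of 1668. In light Q157R, 3 counts over both libraries, the limit that a count of 0 allows by counting error alone, are 17.2 CPM. The cause of these changes was not tested.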
